A study of Homo sapiens with 6 samples.

Results

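Alveolar type II cells make pulmonary surfactant, the film of phospholipid and protein that keeps the air sacs of the lung open. Surfactant proteins SP-B and SP-C are cut from larger precursors and stored with phospholipid in lamellar bodies, and NKX2-1 is the lineage transcription factor that drives much of this programme. Many lung adenocarcinomas keep part of it, and NKX2-1 and napsin A are used to recognise them. The 10 genes described here were a given list of type II identity genes: SFTPB, SFTPC, SFTPD, NKX2-1, ABCA3, NAPSA, SLC34A2, LPCAT1, LAMP3 and AQP4. Each was read by the brightest probe that carries its symbol alone, all 10 were measured, and they are 10 of 18417 genes in the table.

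The cells were H441, an established human lung adenocarcinoma line that is widely used as a model of distal lung epithelium. One group of 3 arrays came from cells given a scrambled control siRNA and the other, also 3 arrays, from cells given siRNA against ETS2, a transcription factor of the ETS family. Both siRNAs were pooled reagents (SMARTpool) delivered with the lipid Lipofectamine RNAiMAX, and total RNA was taken after 48 h. The labels number the arrays of each group but do not say whether each came from a separate transfection of this one line. Levels are RMA values, given as log2, differences are ETS2 siRNA minus control, and "changed" means an adjusted p under 0.05 in limma fitted over all 18417 genes. In bulk RNA, fewer cells that express a gene and less RNA per cell cannot be told apart.

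The knockdown was visible on the arrays. ETS2 read 9.79, 9.91 and 9.79 in control cells and 8.87, 8.70 and 8.78 after ETS2 siRNA, which is 48.4% of its control level (log2 difference -1.05, 95% interval -1.18 to -0.92, limma adjusted p = 0.000254). Array medians over genes lay between 8.07 and 8.10. A background floor was set at a log2 value of 6.67, the 95th percentile of the mean levels of 341 olfactory receptor genes, which are not expected in lung cells.

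As a check on the name of the gene group, 9 of the 10 members lay above that floor in at least 1 group, against 70.8% of all genes. The exception was SFTPC, the surfactant gene most specific to type II cells, with mean levels of 6.61 in control cells and 6.62 after ETS2 siRNA. The name type II thus rests here on the other 9 genes, and a level above the floor is not specific to such genes. Of 10 gastric and hepatic lineage genes, 9 lay above the floor, with mean control levels between 6.78 and 7.55. Of 9 ciliated and basal markers, 6 did, between 6.92 and 8.21. Among the members above the floor, LAMP3 at 7.37 and SFTPD at 7.76 were as low, and the rest ran from 8.68 for ABCA3 to 12.83 for SLC34A2. Of 9 club cell markers, 4 lay above the floor, and SCGB1A1, the defining secretoglobin of club cells, did not. Of 10 leukocyte markers, 5 lay above the floor, with control levels of 11.29 for CD68, a lysosomal protein of macrophages that epithelial cells also make, and between 6.86 and 7.06 for MARCO, ITGAM, CSF1R and CD14, while PTPRC, which defines leukocytes, read 4.74. Of 10 fibroblast and endothelial markers, 6 lay above it, led by LUM at 9.03, COL1A1 at 8.95 and CLDN5 at 7.80, while DCN, PECAM1, VWF and CDH5 lay below it. These markers were picked out after their values were seen, and the part of other cells in the results was not tested.

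In brief, 4 of the 10 members fell after ETS2 siRNA and 0 rose. Over all genes 4.91% changed, with 2.63% lower and 2.28% higher, so the share of members lower was above the background. The genes that fell were AQP4, SFTPB, SLC34A2 and ABCA3, by log2 differences between -0.55 and -0.20. The lineage factor NKX2-1, the protease NAPSA, the acyltransferase LPCAT1 and the lamellar body protein LAMP3 had negative differences that did not pass the test, and SFTPC and SFTPD had small positive ones. The median difference of the 10 members was -0.12, against 0.0033 over all genes. The members were chosen with earlier results of these data known, so their count is a description and has no test of its own.

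Sequence upstream of the genes that fell is shown here because ETS factors bind the core GGAA, and a reader can see where that core lies. RefSeq start sites of GRCh38.p14 matched 8 of the 10 members, with 14 windows of the 250 bases before a start, since some genes have several; SFTPC and LAMP3 had none. For each of the 4 genes that fell, 1 window is given, the one with most cores, and on a tie the one with the lowest coordinate. Capitals mark each GGAA, or TTCC where the core is on the opposite strand. Each line reads 5′ to 3′ along the gene and ends just before the start site, and all but SLC34A2 lie on the minus strand. They cover chr2:85668200-85668449 for SFTPB, chr18:26862911-26863160 for AQP4, chr4:25656214-25656463 for SLC34A2 and chr16:2340729-2340978 for ABCA3.
SFTPB: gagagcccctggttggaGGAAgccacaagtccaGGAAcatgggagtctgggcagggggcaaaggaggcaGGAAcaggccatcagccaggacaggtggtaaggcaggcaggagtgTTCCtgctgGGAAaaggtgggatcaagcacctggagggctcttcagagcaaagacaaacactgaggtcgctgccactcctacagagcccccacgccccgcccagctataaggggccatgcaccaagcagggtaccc
AQP4: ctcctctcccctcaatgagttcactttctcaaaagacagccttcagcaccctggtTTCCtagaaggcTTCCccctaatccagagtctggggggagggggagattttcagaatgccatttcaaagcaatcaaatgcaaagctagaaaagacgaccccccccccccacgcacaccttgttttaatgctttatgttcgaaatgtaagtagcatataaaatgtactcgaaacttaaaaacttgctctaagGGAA
SLC34A2: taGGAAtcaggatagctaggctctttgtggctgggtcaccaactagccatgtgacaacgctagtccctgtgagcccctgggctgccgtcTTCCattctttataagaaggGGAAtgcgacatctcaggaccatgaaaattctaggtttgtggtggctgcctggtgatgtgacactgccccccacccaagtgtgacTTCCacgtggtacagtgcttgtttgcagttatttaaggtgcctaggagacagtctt
ABCA3: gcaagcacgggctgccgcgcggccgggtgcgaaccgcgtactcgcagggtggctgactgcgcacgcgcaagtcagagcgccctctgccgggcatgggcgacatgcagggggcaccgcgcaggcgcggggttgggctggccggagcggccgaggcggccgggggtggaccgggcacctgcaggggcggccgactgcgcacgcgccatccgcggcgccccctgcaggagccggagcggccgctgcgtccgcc

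The SFTPB window held 5 cores and the SLC34A2 window 4. The AQP4 window held 3, and the ABCA3 window, which is 79.2% G and C, held 0. A core this short is common: 92.7% of 35116 such windows in the RefSeq table hold GGAA on either strand, the median is 3 per window, and 18.6% hold 5 or more. The other SFTPB start had 0 cores, the other SLC34A2 start 1 and the other 2 AQP4 starts 3 and 2. Members that were not called held cores too. Their windows with most cores had 5 for NAPSA, 2 for LPCAT1, 2 for NKX2-1 and 1 for SFTPD. In all, GGAA was present on either strand in 12 of the 14 member windows. Each count only says which letters are there, and none of these windows was tested for binding.

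Letters of the other lineage factors were searched on both strands of the same windows. The NKX2-1 core CAAG occurred in 12 of the 14 member windows and in 80.9% of all windows. In the SFTPB sequence above it lies at 3 places, bases -225 to -222, -113 to -110 and -14 to -11 before the start. The same window holds TGTTTG, a variant of the FOXA motif, on the opposite strand at -82 to -77, and TGTTTG occurred in 4 of the 14 member windows against 12.8% of all windows. The SFTPB promoter is a textbook target of NKX2-1 and FOXA factors. The longer forms were rarer: CTCAAG (which contains CAAG) was found in 1 member window, that of NAPSA, against 10.4% of all windows, and CCGGAA (which contains GGAA) also in 1, again that of NAPSA, against 14.5%. TGTTTAC occurred in 1 member window, upstream of NKX2-1, against 2.98% of all windows. The C/EBP motif TTGCNNAA was in 3, those of AQP4, SFTPD and SLC34A2, against 9.05%. CAAG and TGTTTG were added to the search after the windows had been read.

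**Figure D1:**
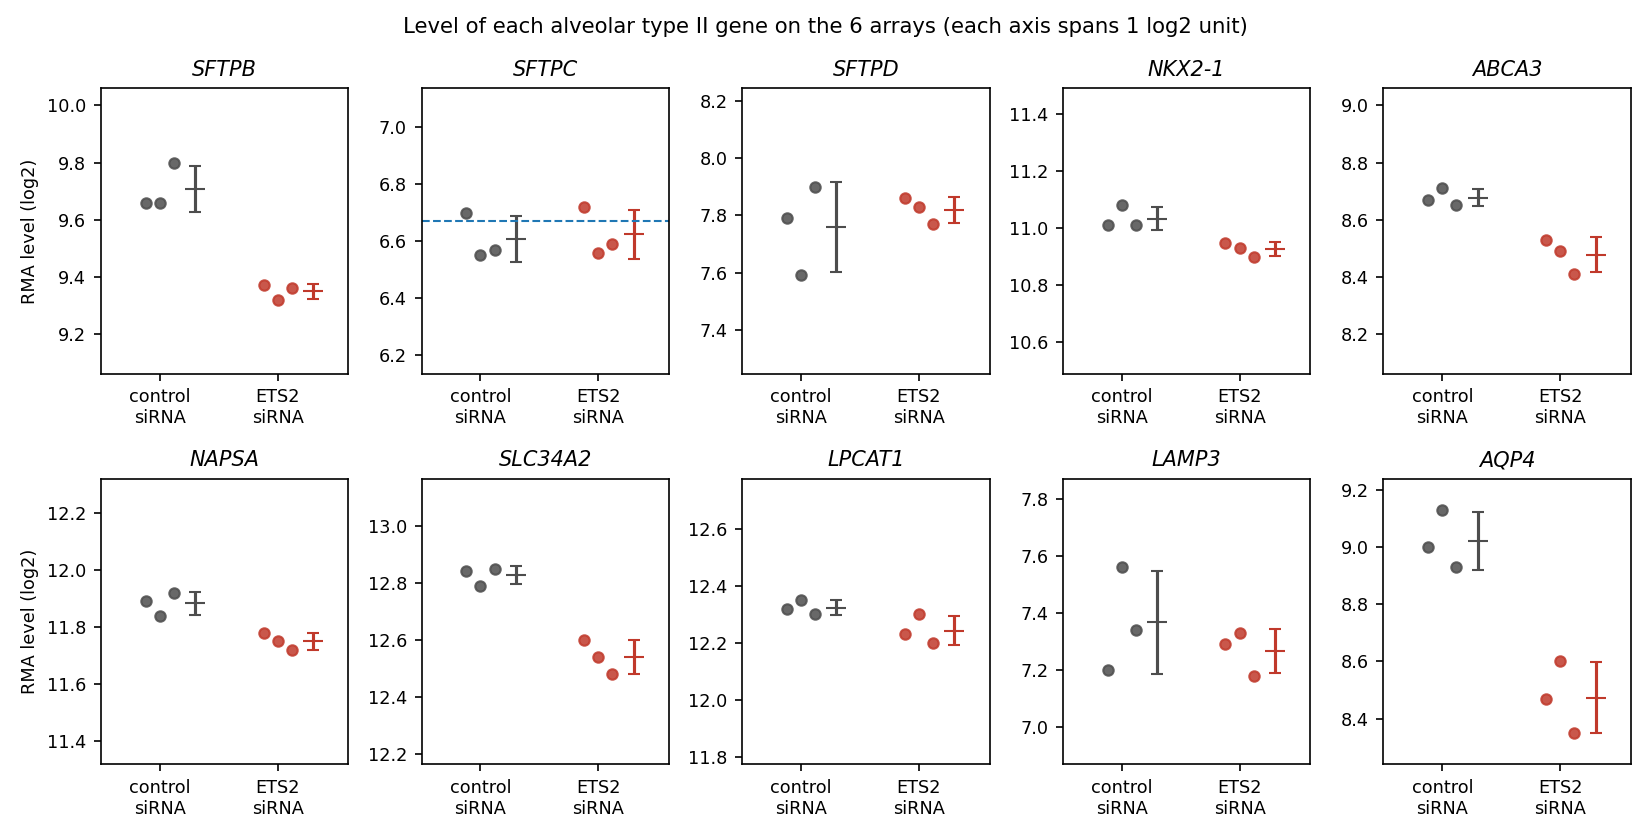
RMA level on the log2 scale (vertical axis, spanning 1 log2 unit in each panel) of the 10 genes on each array, with 3 control siRNA arrays in grey and 3 ETS2 siRNA arrays in red; the bar beside the points is the mean with the SD over 3 arrays, and the dashed line in the SFTPC panel is the background floor of 6.67. The red points lie wholly below the grey ones for SFTPB, NKX2-1, ABCA3, NAPSA, SLC34A2 and AQP4, and overlap with them for the other 4.

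Among the surfactant proteins, SFTPB fell. It encodes SP-B, the hydrophobic protein that is needed to form lamellar bodies and to spread the surfactant film. Its levels were 9.66, 9.66 and 9.80 in control cells and 9.37, 9.32 and 9.36 after ETS2 siRNA. Every array with ETS2 siRNA lay below every control array, and the control array of replicate 3 was the highest. The mean was 9.71 ± 0.08 (SD, n = 3) with control siRNA and 9.35 ± 0.03 (SD, n = 3) with ETS2 siRNA. This is a log2 difference of -0.36 (SE 0.0491, 95% interval -0.47 to -0.24, limma adjusted p = 0.00770), or 78.1% of the control level.

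SFTPC and SFTPD were not called. SFTPC, which encodes the small membrane-spanning SP-C, read 6.70, 6.55 and 6.57 in control cells and 6.72, 6.56 and 6.59 after ETS2 siRNA. The groups overlap almost completely at background, so a change of SFTPC was not measurable with this probe. SFTPD, which encodes the collectin SP-D of innate defence, read 7.79, 7.59 and 7.90 in control cells and 7.86, 7.83 and 7.77 after ETS2 siRNA. Its control arrays spread more (SD 0.157) than those of SFTPB, the groups overlapped, and the difference of 0.06 had a 95% interval from -0.11 to 0.23 (limma adjusted p = 0.759). That interval does not reach the difference measured for SFTPB.

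SP-A, the most abundant surfactant protein, is encoded by the near-identical genes SFTPA1 and SFTPA2, and its 4 probes carry both symbols, so that the genes cannot be told apart. These probes were outside the gene-level comparison and were tested among all 33297 probes, of which 0.688% were lower. They hold 2 distinct readings. The first read 12.82, 12.79 and 12.84 with control siRNA and 12.58, 12.60 and 12.52 after ETS2 siRNA, a log2 difference of -0.25 (SE 0.0405, 95% interval -0.35 to -0.15, limma adjusted p = 0.0489), or 84.1% of the control level. The second read 12.28, 12.23 and 12.30 with control siRNA and 12.05, 12.03 and 11.95 after ETS2 siRNA, a difference of -0.26 (SE 0.0446, limma adjusted p = 0.0564), just outside the threshold. In both readings every array with ETS2 siRNA lay below every control array.

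NKX2-1, the homeodomain factor that activates surfactant genes, stood at 11.01, 11.08 and 11.01 in control cells. After ETS2 siRNA it read 10.95, 10.93 and 10.90. The groups did not overlap, yet the shift was small: the log2 difference was -0.11 (SE 0.0399, 95% interval -0.20 to -0.01), 92.9% of the control level, and it did not pass the test (limma adjusted p = 0.194; unadjusted p = 0.0278). Over all genes 18.5% had an unadjusted p under 0.05, and among the members 6 did.

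Of the 4 genes of surfactant processing, storage and remaking, 1 fell. ABCA3, the transporter that loads phospholipid into lamellar bodies, read 8.67, 8.71 and 8.65 in control cells and 8.53, 8.49 and 8.41 after ETS2 siRNA. The groups were apart, with a log2 difference of -0.20 (SE 0.0446, 95% interval -0.30 to -0.10, limma adjusted p = 0.0441), or 87.1% of the control level. This call was close to the threshold and was lost without any 1 of the 6 arrays (adjusted p between 0.0659 and 0.157), while the difference stayed between -0.23 and -0.17.

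NAPSA encodes napsin A, an aspartic protease that cuts the SP-B precursor. It read 11.89, 11.84 and 11.92 in control cells and 11.78, 11.75 and 11.72 after ETS2 siRNA. As with NKX2-1, the groups were apart but the difference of -0.13 (SE 0.0404, 95% interval -0.23 to -0.04) did not pass the test (limma adjusted p = 0.115). LAMP3, a membrane glycoprotein of lamellar bodies also called DC-LAMP, read 7.20, 7.56 and 7.34 in control cells and 7.29, 7.33 and 7.18 after ETS2 siRNA. Its control arrays had the widest spread of the 10 genes (SD 0.181), the groups overlapped, and the difference of -0.10 had a 95% interval from -0.30 to 0.10 (limma adjusted p = 0.629). LPCAT1, which remakes the disaturated phosphatidylcholine of surfactant from its lyso form, read 12.32, 12.35 and 12.30 in control cells and 12.23, 12.30 and 12.20 after ETS2 siRNA. The groups met at 12.30, with a difference of -0.08 (95% interval -0.18 to 0.02, limma adjusted p = 0.375).

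The remaining members, SLC34A2 and AQP4, encode membrane proteins of phosphate and water transport, and both fell. SLC34A2 is the sodium phosphate cotransporter NaPi-IIb, which takes up phosphate released from spent surfactant. It read 12.84, 12.79 and 12.85 in control cells and 12.60, 12.54 and 12.48 after ETS2 siRNA. The groups were apart, with a log2 difference of -0.29 (SE 0.0445, 95% interval -0.39 to -0.18, limma adjusted p = 0.0120), 82.0% of the control level. The call was lost without control replicate 3 (adjusted p = 0.0524), ETS2 siRNA replicate 2 (0.0587) or ETS2 siRNA replicate 3 (0.0617), with differences between -0.32 and -0.26 over the 6 fits with 1 array left out.

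AQP4, a water channel, gave the largest difference of the 10. It read 9.00, 9.13 and 8.93 in control cells and 8.47, 8.60 and 8.35 after ETS2 siRNA. All control arrays lay above all arrays with ETS2 siRNA. The mean was 9.02 ± 0.10 (SD, n = 3) with control siRNA and 8.47 ± 0.13 (SD, n = 3) with ETS2 siRNA. This is a log2 difference of -0.55 (SE 0.0740, 95% interval -0.72 to -0.38, limma adjusted p = 0.00737), or 68.5% of the control level. With 1 array left out in turn, AQP4 stayed called in all 6 fits, with differences from -0.61 to -0.485. SFTPB did so as well, from -0.38 to -0.31.

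**Figure D2:**
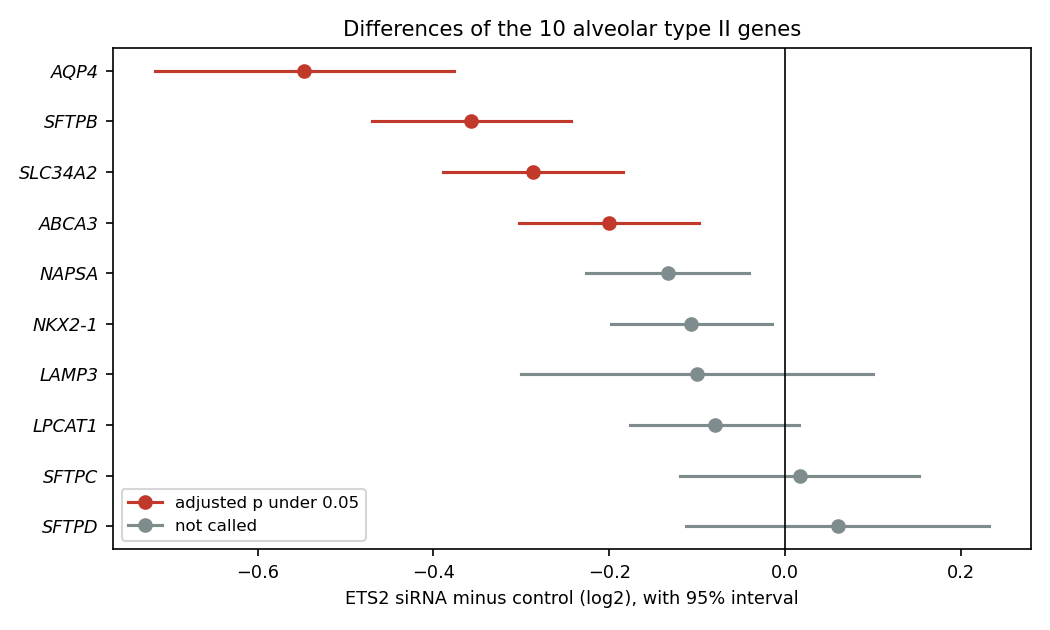
Log2 difference of ETS2 siRNA minus control (horizontal axis) for the 10 genes with limma's 95% interval, in red where the adjusted p over all genes is under 0.05. The 4 red genes run from ABCA3 at -0.20 to AQP4 at -0.55, and the intervals of NAPSA and NKX2-1 end below 0 although neither gene is called.

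Set side by side, the members' differences ran from -0.55 to 0.06. In 6 of them the groups did not overlap, all lower after ETS2 siRNA, against 11.5% of all genes with that pattern and 23.1% without overlap in either direction. Differences were below 0 for 8 of the 10, against 48.4% of all genes. The size of AQP4's difference was exceeded by few genes, at percentile 99.8 of absolute differences over all genes. SFTPB was at percentile 98.8, SLC34A2 at 97.9, ABCA3 at 94.1, NAPSA at 85.1 and NKX2-1 at 78.0. No exact permutation test is given for single genes, because with 3 arrays a group its smallest possible p is 0.1.

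**Figure D3:**
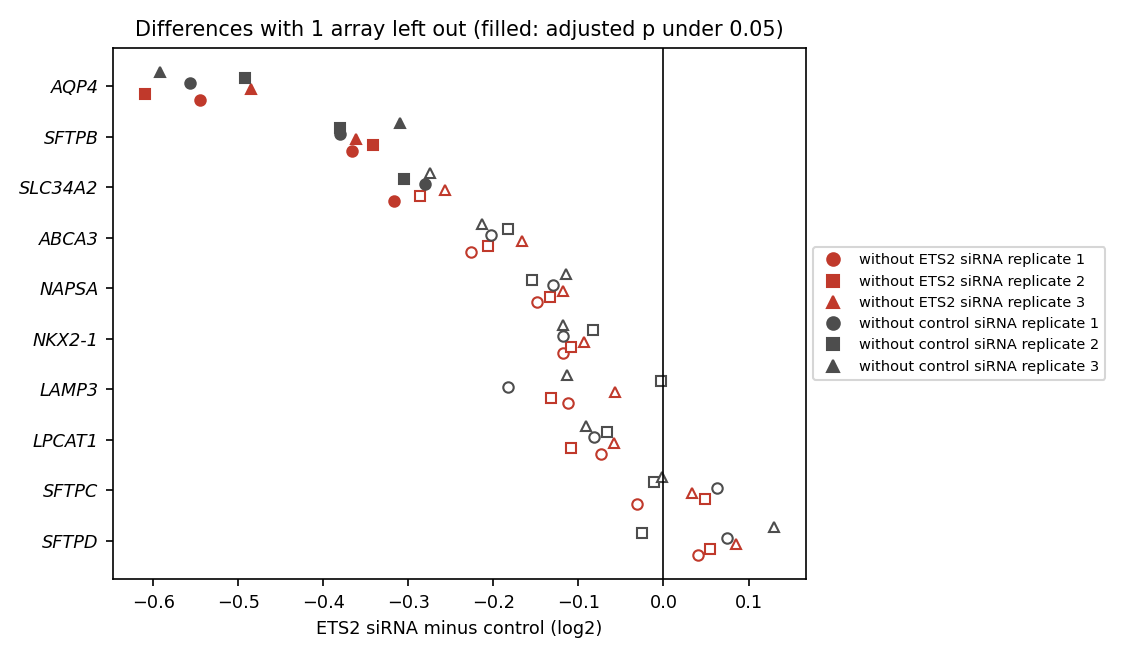
Log2 difference of ETS2 siRNA minus control (horizontal axis) for each of the 10 genes with 1 array left out; the marker shows which array, red for an ETS2 siRNA array and grey for a control array, and filled markers have an adjusted p under 0.05. All markers of AQP4 and SFTPB are filled, 3 of the 6 of SLC34A2 are, and all of ABCA3 are open, while SFTPC and SFTPD lie on both sides of 0.

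Few other type II genes changed. Of 19 further type II genes measured, 1 changed, which is 5.26% against 4.91% of all genes, and their median difference was 0.02. The changed gene was CYP2B7P, a transcribed pseudogene of the cytochrome P450 family. Its level was 10.12 ± 0.09 (SD, n = 3) with control siRNA and 9.54 ± 0.11 (SD, n = 3) with ETS2 siRNA, a difference of -0.58 (limma adjusted p = 0.00425). Of these 19 genes, 9 lay below the floor in both groups. Those above it included MUC1, a membrane mucin, at -0.13 (limma adjusted p = 0.0860), and CTSH, the cathepsin that helps process SP-B and SP-C, at -0.16 (limma adjusted p = 0.146). MFSD2A, also above the floor, went the other way at 0.14 (limma adjusted p = 0.107). None of these was called, and all were picked after their values were seen. Of the 19 differences, 11 were above 0 and 8 below. Those above 0 included HHIP, KCNJ15, CRTAC1, C4BPA, WIF1, FGG and LRRK2, all below the floor. Those below 0 included PGC and DMBT1, also below the floor. In 5 of the 19 the groups did not overlap and were lower after ETS2 siRNA, and in 2 they were higher. Over all genes 11.5% had the lower pattern and 23.1% had no overlap in either direction.

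The factors that act with or beside NKX2-1 went both ways. Of 22 measured, 1 fell and 1 rose, with a median difference of 0.01. That is 9.09% changed, against 4.91% of all genes and 6.79% of genes above the floor. GRHL2, a grainyhead factor of lung epithelium, went from 10.69 ± 0.05 to 10.42 ± 0.03 (SD, n = 3), a difference of -0.27 (limma adjusted p = 0.0120). FOXA2, a forkhead factor that binds surfactant promoters together with NKX2-1, rose from 7.57 ± 0.04 to 7.82 ± 0.11 (SD, n = 3), a difference of 0.26 (limma adjusted p = 0.0450). The GRHL2 call was lost without ETS2 siRNA replicate 2 (adjusted p = 0.0595) or replicate 3 (0.0664), and FOXA2 was called in 1 of the 6 fits with 1 array left out, the one without ETS2 siRNA replicate 2.

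Enzymes of surfactant phospholipid synthesis and turnover had 2 changed members of 28, both lower, and a median of 0.035. That is 7.14%, near the 4.91% of all genes and the 6.79% of genes above the floor. ELOVL1, which elongates long saturated fatty acids, had the larger change, from 12.10 on all 3 control arrays to 11.54 ± 0.03 (SD, n = 3), a difference of -0.56 (limma adjusted p = 0.000503), and stayed called with any 1 array left out. PLA2G15, the lysosomal phospholipase A2 that degrades surfactant lipid, fell by 0.21 (limma adjusted p = 0.0277), a call lost without any 1 array. Genes of the lamellar body and of exocytosis had 2 lower of 30 (6.67%, again near the background) and a median of -0.0017. That count depended on the setting, from 0 with all probes tested to 8 with an intensity trend. SNAP23, a SNARE protein of membrane fusion, fell by 0.26 (limma adjusted p = 0.0325), called in 1 of 6 fits with 1 array left out, and LAMP2, a lysosomal membrane protein, by 0.18 (limma adjusted p = 0.0363), called in 0 of 6.

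Beside AQP4 and SLC34A2, other genes of alveolar water, ion and phosphate transport were not called by limma, 0 of 19, with a median of -0.03. Among them 5 had an unadjusted limma p under 0.05, where 18.5% of all genes did. SLC20A2, a phosphate carrier of another family, came closest at -0.14 (limma adjusted p = 0.0829), and SCNN1G, a subunit of the epithelial sodium channel, read -0.21 (limma adjusted p = 0.140). Of 12 markers of alveolar type I cells, the flat cells that arise from type II cells, 1 changed: GPRC5A, a retinoic acid-induced receptor, fell by 0.22 (limma adjusted p = 0.0190), called in 1 of 6 fits with 1 array left out. The share changed in that list was 8.33%, against 4.91% of all genes and 6.79% of genes above the floor, and its median was 0.015.

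Markers of other cell types had no called member in this limma fit. Over all genes 18.5% had an unadjusted p under 0.05. Among 9 club cell markers 0 had an unadjusted p under 0.05, with SCGB3A1, an airway secretoglobin, at 0.10 and CYP4B1, a cytochrome P450 of the airway, at -0.10. Among 9 ciliated and basal markers 1 did, with the desmosomal DSG3 at 0.09, below the floor, and the keratin KRT5 at -0.07. The 10 leukocyte markers had 2, CD68 at 0.17 (limma adjusted p = 0.107) and ITGAM at -0.16. CD68 was called higher in 3 of 11 other settings, with an intensity trend (adjusted p = 0.00761), among genes above the median level (0.0236) and with array weights (0.0414). The mean level over the leukocyte list ran from 6.43 to 6.46 in control cells and from 6.42 to 6.48 after ETS2 siRNA. The 10 fibroblast and endothelial markers had 0, with COL1A1, a collagen chain, at 0.10 and the claudin CLDN5 at 0.08. Gastric and hepatic lineage genes, which are known to appear in lung tumours that lose NKX2-1, had 1 of 10, with the trefoil factor TFF1 at 0.11 and the protease CTSE at -0.08.

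**Figure D4:**
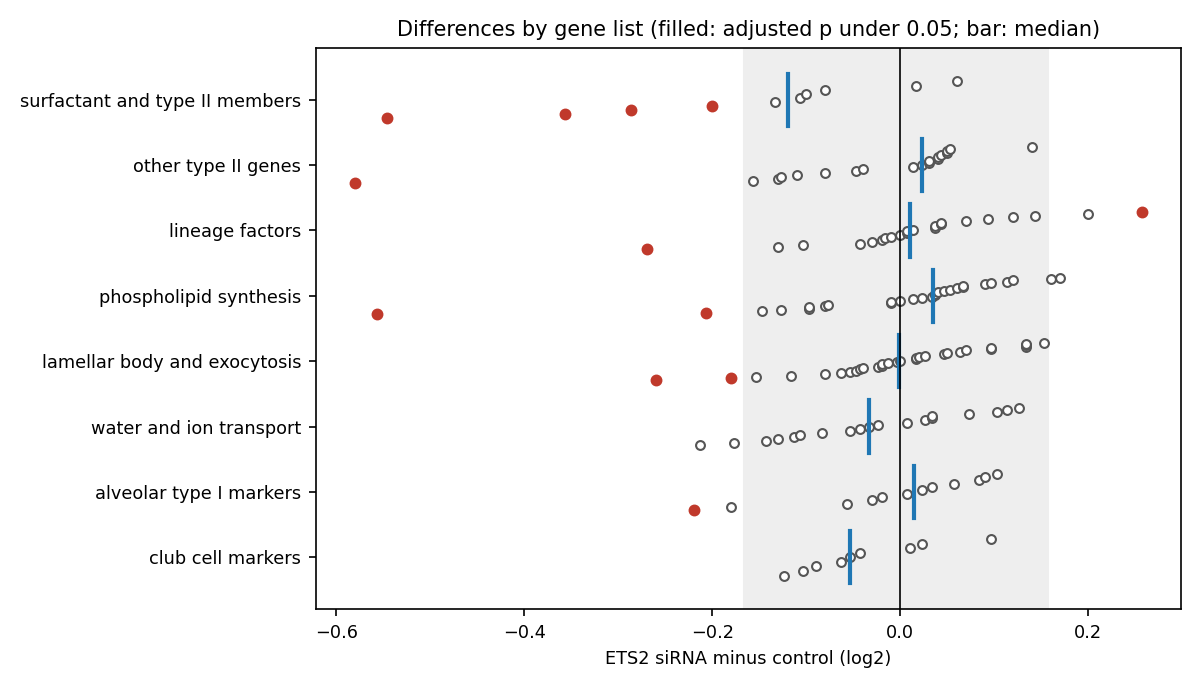
Log2 difference of ETS2 siRNA minus control (horizontal axis) for each measured gene of 8 lists, filled red where the adjusted p over all genes is under 0.05, with the list's median as a blue bar and the range from the 5th to the 95th percentile of all genes (-0.17 to 0.16) shaded. The members' median of -0.12 lies left of the other 7 medians, and all 4 red members lie outside the shaded range.

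For each member that fell, the genes with the most similar values over the 6 arrays were found among 13042 other genes above the floor, by the root mean square distance between levels centred on each gene's own mean. Nearest to SFTPB were GPR137 (distance 0.0195), CDKL2 (0.0329) and CHCHD3 (0.0330), where the median gene lay at 0.195. GPR137 repeated the high control replicate 3, at 9.13, 9.17 and 9.28 against 8.89, 8.84 and 8.87. Nearest to SLC34A2 were ZDHHC24 (0.0203), LMO3 (0.0271) and AAK1 (0.0283), and nearest to ABCA3 were PRKACA (0.0134), CITED2 (0.0150) and EPB41L1 (0.0163). Nearest to AQP4 were IFT52 (0.0461), C16orf87 (0.0497) and CYFIP2 (0.0588), the first at 9.12, 9.31 and 9.14 in control cells and 8.65, 8.68 and 8.46 after ETS2 siRNA. Of these 12 genes, limma called 11 lower, which the measure favours, since genes near a changed member must differ between the groups. CITED2 was the exception at -0.18 (limma adjusted p = 0.0545).

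**Figure D5:**
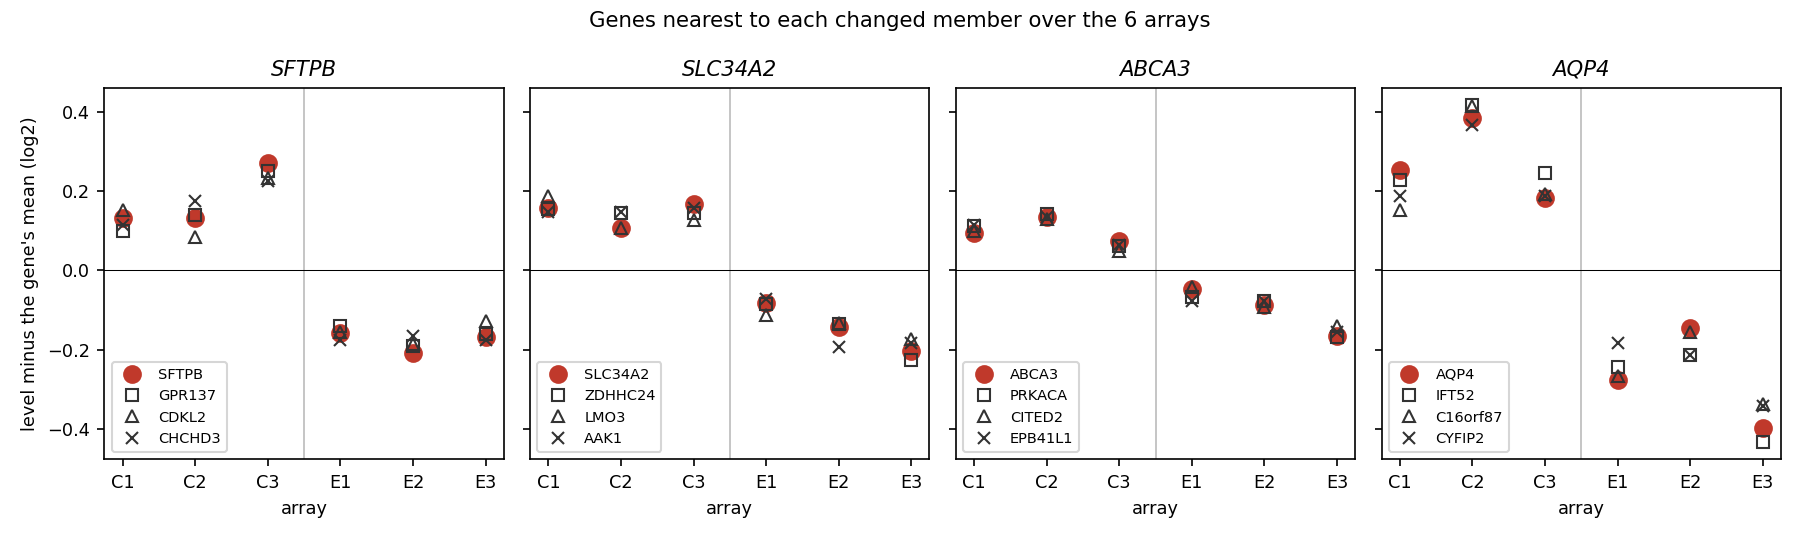
Level minus the gene's own mean on the log2 scale (vertical axis) on the control arrays C1 to C3 and the ETS2 siRNA arrays E1 to E3, for each of the 4 members that fell (red circles) and its 3 nearest genes (open squares, triangles and crosses). In each panel the control arrays lie above 0 and the ETS2 siRNA arrays below it, and in the AQP4 panel control replicate 2 is the highest point for all 4 genes.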

How the data were processed

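The arrays measured total RNA of H441 cells, 3 per group. The deposited values are log2 levels, 1 column per array; RMA, which corrects background, normalises arrays to each other and summarises probes, appears in the submitters' processing notes. Version, settings and build: not given in the sources used here. RMA removes shifts shared by all genes and compresses differences of dim ones. Of 33297 probes, 19460 carried 1 gene symbol in the platform annotation, 1754 several and 12083 none here; the brightest probe of each gene gave 18417 genes, with no filter on level. By gene identifier, 19429 of the single-symbol probes matched a RefSeq record, and 0 symbols changed.

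Differences were fitted with limma 3.58.1 in R 4.3.3 (lmFit, eBayes, no trend, two-sided, Benjamini-Hochberg over all genes). Errors of levels are SDs, and errors of differences are moderated standard errors. Precision is low with 3 arrays per group. Each p-value rests on how far arrays of the same group differ, and whether those arrays were separate transfections is unknown. The procedure was tested on simulated data. The members and lists were chosen with earlier results of these data known. Named are ETS2, the members, up to 6 changed genes per list (failing any, the 2 lowest p-values) and the 3 nearest genes of each changed member; other genes are said to be chosen later. Alternatives were a replicate block, 3 rescalings, 2 filters, 2 ways of treating probes, 2 variance models, array weights and each array left out. Motifs were searched in RefSeq windows of GRCh38.p14; no gene coordinates other than those windows are printed, since the array's build is unknown.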

Additional observations from a re-analysis of the deposited data

How the results depend on the processing

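AQP4 and SFTPB were called under all 11 settings other than leaving out an array, with differences from -0.55 to -0.49 and from -0.40 to -0.35; so was SLC34A2. ABCA3 was called in 8 of the 11, and not with the replicate block (adjusted p = 0.0657), with ribosomal protein scaling (0.0787) or with all probes tested (0.114). NKX2-1 was called with an intensity trend (0.0410), and NAPSA with that trend (0.00615), array weights (0.0381) or genes above the median level (0.0249). With 1 array left out, the members called lower numbered 2 to 3 in place of 4 and all changed genes 213 to 735 in place of 904. The members called higher were 0 throughout. All changed genes numbered 1397 among genes above the floor and 1963 among genes above the median level, where fewer genes were tested. They numbered 1963 with an intensity trend and 1480 with array weights. Over all probes, a larger set of features, 399 probes changed. The cause of these different counts was not tested. With the replicate number as a block, 604 genes and 3 members were called. Same-numbered arrays deviated together with r = 0.241, 0.233 and 0.0689. Unlike numbers gave r from -0.243 to 0.0696, the highest between control replicate 3 and ETS2 siRNA replicate 1. All arrays but control replicate 3 correlated best with their own number. The labels name no shared batch, so the numbers were not taken as pairs. Whether same-numbered arrays shared a step was not tested. Over the 11 settings, changed genes numbered 1 to 4 of the other type II genes, 1 to 4 of the lineage factors, 1 to 5 of the phospholipid genes and 0 to 8 of the lamellar body genes. They numbered 0 to 2 of the transport genes and of the type I markers and 0 to 1 of the leukocyte markers. SFTPC lay below the floor, which limits what its probe can show.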

Other observations

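A second probe that lists SLC34A2 together with ROS1 and LRIG3, partners in known gene fusions, read 7.21, 7.40 and 7.47 in control cells and 7.18, 7.12 and 7.10 after ETS2 siRNA. Its difference was -0.23 (95% interval -0.40 to -0.06, limma adjusted p = 0.224 over all probes), which was not called. It cannot be assigned to 1 gene.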
